A study of Homo sapiens with 4 samples.

Results

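The genes described here are the LINC-named genes that reached 1 FPKM (a fragment count scaled to transcript length and to library depth) in at least 1 of 4 RNA-seq libraries of gastric cancer cells. They are the rows of the deposited table whose symbol is LINC followed by digits and whose highest value is at least 1 FPKM. Of 57815 rows, 562 carry such a name, and 59 of these 562 reached the level. They were thus chosen by the FPKM values themselves, so the height of their highest value is a description and not a finding. The study knocked down HOXB9, a homeobox transcription factor, to search for its possible target genes in MKN1 and AGS, established human lines from gastric cancers. Each of 4 groups is 1 library: MKN1 with siHOXB9 and labelled as HOXB9 knockdown, MKN1 with siScramble and labelled as wild type, AGS with siHOXB9 and labelled as HOXB9 knockdown, and AGS with siScramble and labelled as wild type. All 4 groups were transfected with Lipofectamine 2000, and the libraries were made from RNA bound to poly-T beads, which selects against RNAs without a poly(A) tail.

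LINC symbols are placeholders given to long intergenic noncoding RNAs, transcripts that lie between protein-coding genes and were not thought to encode a protein when they were named. Some such RNAs act on the genes next to them, some bind proteins or microRNAs elsewhere in the cell, some are processed into small RNAs, and some were later found to encode small proteins. Many are made in few cell types and at low levels.

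HOXB9 itself, the targeted gene, had 0.218 FPKM in MKN1 siHOXB9 and 1.14 FPKM in MKN1 siScramble, and 4.44 FPKM in AGS siHOXB9 and 16.4 FPKM in AGS siScramble. The siHOXB9 value was 19.1% of siScramble in MKN1 and 27.0% in AGS, so the target was lower in the library labelled as knockdown in both lines. Depth, estimated from the steps of low values, was about 10610000 fragments in MKN1 siHOXB9, 11550000 in MKN1 siScramble, 12470000 in AGS siHOXB9 and 12970000 in AGS siScramble. Of 6 epithelial markers 5 were at 1 FPKM or more in every library, with summed levels of 1772 to 4522 FPKM. The exception was CDH1, the epithelial cadherin, at 0.285 FPKM in MKN1 siHOXB9 and 0.0752 FPKM in MKN1 siScramble. With siHOXB9 given first, EPCAM was at 2.70 and 2.14 FPKM in MKN1, against 359 and 328 FPKM in AGS. KRT19 was at 2.66 and 2.02 FPKM in MKN1, against 1001 and 838 FPKM in AGS. The MKN1 sums were mostly KRT8, at 1230 and 1077 FPKM, and KRT18, at 721 and 654 FPKM, in the same order. Of 6 gastric epithelium markers only TFF1 reached 1 FPKM in every library. The secreted gastric markers MUC5AC, GKN1 and GKN2 did not exceed 0.161 FPKM in any library. TFF1 was at 1.28 FPKM in MKN1 siHOXB9, 1.20 FPKM in MKN1 siScramble, 14.8 FPKM in AGS siHOXB9 and 26.2 FPKM in AGS siScramble. CLDN18 reached 1.15 FPKM in AGS siHOXB9 and 1.53 FPKM in AGS siScramble, and TFF2 no more than 0.962 FPKM in any library. Of 4 leukocyte markers none reached 1 FPKM, and their summed level was 0.168 to 0.739 FPKM. Of 4 fibroblast markers 3 reached 1 FPKM in a library. The fibroblast collagen COL1A1 was at 15.8 to 43.8 FPKM while its partner chain COL1A2 was listed at 0 in all libraries. DCN reached 1.52 FPKM in MKN1 siScramble, and PDGFRB 1.16 FPKM in MKN1 siScramble and 1.31 FPKM in AGS siHOXB9. Of 3 endothelial markers only CDH5 reached 1 FPKM, at 1.95 FPKM in MKN1 siScramble, and PECAM1 had no value.

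A value of 0 in the table needs care. Of all rows, 480 were listed at 0 somewhere although another library gave them 5 FPKM or more, and 364 of these were protein-coding. RPS18, a ribosomal protein gene that every cell uses, was among the rows with a 0. Zeros are therefore given as listed, with no ratio of FPKM values against them. Differences of log2(FPKM + 1) and counts past 2-fold below do include zeros, and their size then depends on the added 1. For LINC00526, listed at 0 in both AGS libraries, the MKN1 minus AGS difference was 3.26 with 1 added and 6.44 with 0.1 added. For a transcript of 2 kb, 1 fragment is worth 0.0443 to 0.0542 FPKM by the estimated depths. Fragment numbers given below use the longest annotated transcript of a gene, so they are upper values where a gene has shorter ones.

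The sequences at the start of a few of these genes are shown first, because levels and differences of these genes are described below. The first pair lies head to head on chromosome 18. LINC00667 runs along the plus strand and LINC00526 along the minus strand, and the windows around their starts overlap. Each window holds 250 bases before to 50 bases after the RefSeq start (GRCh38.p14), and capitals mark the 170 bases that the windows share. The LINC00667 window is chr18:5237850-5238149 on the plus strand, and the LINC00526 window is chr18:5237980-5238279 on the minus strand, so its capitals are the reverse complement of the first.
LINC00667: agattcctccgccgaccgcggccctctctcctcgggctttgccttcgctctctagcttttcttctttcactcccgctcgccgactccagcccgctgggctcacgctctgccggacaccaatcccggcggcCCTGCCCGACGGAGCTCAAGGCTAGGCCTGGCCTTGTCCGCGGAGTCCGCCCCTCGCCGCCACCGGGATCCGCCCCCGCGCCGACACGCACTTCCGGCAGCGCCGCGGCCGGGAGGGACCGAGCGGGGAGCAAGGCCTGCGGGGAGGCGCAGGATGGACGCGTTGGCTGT
LINC00526: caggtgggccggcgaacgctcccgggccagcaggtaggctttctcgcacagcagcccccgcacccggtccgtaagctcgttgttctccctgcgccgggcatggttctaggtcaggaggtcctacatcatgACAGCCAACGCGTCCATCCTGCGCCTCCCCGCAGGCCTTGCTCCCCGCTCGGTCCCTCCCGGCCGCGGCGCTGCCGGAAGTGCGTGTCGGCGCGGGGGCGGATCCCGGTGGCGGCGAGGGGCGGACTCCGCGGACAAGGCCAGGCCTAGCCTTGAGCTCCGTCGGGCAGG

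LINC00473 is known as a target of CREB, the transcription factor switched on by cyclic AMP, which binds sites containing TGACG. Its window (chr6:165987990-165988289, minus strand, GRCh38.p14) holds 2 matches to TGACG on either strand, in capitals, which begin 167 and 92 bases before the start. TGACG was found on either strand in 28.4% of 27305 genes with a RefSeq window of this length. It was found in 16 of the 49 LINC-named genes with such a window, so a match is common. A gene may have more than 1 window, with 60 windows for these 49 genes, and was counted if any of them matched.
LINC00473: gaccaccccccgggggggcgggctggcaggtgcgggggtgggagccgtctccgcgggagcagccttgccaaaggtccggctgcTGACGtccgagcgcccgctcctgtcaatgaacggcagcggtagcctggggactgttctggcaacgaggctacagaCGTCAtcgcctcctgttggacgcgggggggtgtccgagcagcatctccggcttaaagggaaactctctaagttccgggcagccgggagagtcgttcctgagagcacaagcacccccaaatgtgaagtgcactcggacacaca

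LINC00152 (CYTOR in RefSeq) is the gene at the highest level in MKN1 cells among the 59. Its window (chr2:87455177-87455476, plus strand, GRCh38.p14) holds 2 matches, in capitals, to TGACTCA on either strand, the letters bound by AP-1 factors, beginning 19 and 9 bases before the start. TGACTCA was found in 6.05% of the 27305 genes and in 5 of the 49.
LINC00152: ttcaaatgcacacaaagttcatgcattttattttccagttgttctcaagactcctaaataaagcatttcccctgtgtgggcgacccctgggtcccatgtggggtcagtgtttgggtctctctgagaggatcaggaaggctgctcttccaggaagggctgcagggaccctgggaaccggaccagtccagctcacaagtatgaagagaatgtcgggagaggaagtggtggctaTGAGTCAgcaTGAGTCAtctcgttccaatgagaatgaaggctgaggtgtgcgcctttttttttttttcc

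LINC01006 (RNF32-DT in RefSeq) starts next to RNF32 and is transcribed away from it. Capitals in the window shown (chr7:156640486-156640785, minus strand, GRCh38.p14) mark the 262 bases that also lie in an RNF32 window.
LINC01006: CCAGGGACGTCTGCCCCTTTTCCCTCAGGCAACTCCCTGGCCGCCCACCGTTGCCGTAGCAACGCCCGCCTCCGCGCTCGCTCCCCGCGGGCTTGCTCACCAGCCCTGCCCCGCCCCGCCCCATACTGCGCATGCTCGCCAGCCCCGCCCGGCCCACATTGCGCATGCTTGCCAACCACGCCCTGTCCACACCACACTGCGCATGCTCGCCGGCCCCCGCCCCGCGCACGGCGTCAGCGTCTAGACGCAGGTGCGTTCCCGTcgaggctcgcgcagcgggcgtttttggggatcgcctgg

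Letters linked to homeobox factors were also searched on either strand. TTTATG, which HOX proteins of the HOXB9 kind can bind, was found in 12.9% of the 27305 genes and in 2 of the 49 LINC-named genes, LINC00623 and LINC01006. The core TAATTA was found in 5.95% of genes and in 3 of the 49, LINC01006 among them. The LINC01006 window printed above holds neither TTTATG nor TAATTA on either strand, so its matches lie in another window of that gene. TGATTTAT, a joint site of HOX and PBX proteins, was found in 1.05% of genes and in 0 of the 49. These matches are a description of letters in a window and say nothing of binding.

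LINC00478 (MIR99AHG in RefSeq) is the host gene of 3 microRNAs on chromosome 21, and it was above siScramble in MKN1, as described below. Their main arms are shown with the seed, bases 2 to 8, in capitals. The arms lie on the plus strand, miR-99a-5p at chr21:16539101-16539122, let-7c-5p at chr21:16539838-16539859 and miR-125b-5p at chr21:16590253-16590274 (GRCh38.p14, RefSeq). The 3 seeds differ from each other. Poly-T libraries of this kind do not measure mature microRNAs.
hsa-miR-99a-5p: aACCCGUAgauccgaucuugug
hsa-let-7c-5p: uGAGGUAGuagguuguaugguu
hsa-miR-125b-5p: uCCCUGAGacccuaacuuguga

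Most of the 59 genes were at low levels. Their highest value over the 4 libraries had a median of 4.37 FPKM. It was at least 5 FPKM in 25 genes, at least 10 FPKM in 17 and at least 20 FPKM in 8, and under 2 FPKM in 16. Just inside the level were LINC00346 at 1.07, LINC00035 at 1.07, LINC00899 at 1.13 and LINC01063 at 1.14 FPKM. Just outside it were LINC00263 at 0.985, LINC00663 at 0.903, LINC00470 at 0.885 and LINC00479 at 0.874 FPKM. Of the 503 LINC-named rows under the level, 359 were listed at 0 in all 4 libraries.

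The share of rows at 1 FPKM or more differed between classes of gene in the same table. It was 10.5% for LINC-named rows, 27.2% for antisense RNAs whose symbols hold -AS, 63.8% for protein-coding genes and 25.6% for all rows. All 15 rows named SNHG, the host genes of small nucleolar RNAs, reached it. Together the 59 genes summed to 442 FPKM in MKN1 siHOXB9, 435 FPKM in MKN1 siScramble, 476 FPKM in AGS siHOXB9 and 569 FPKM in AGS siScramble. That is 0.0535%, 0.0555%, 0.0612% and 0.0685% of all FPKM in the same 4 libraries. The 5 genes with the highest means held 51.8% to 57.0% of this sum in MKN1 and 66.1% to 69.3% in AGS.

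The current annotation gives many of these symbols another name. In RefSeq 37 of the 59 matched by symbol and 22 through an older synonym. RefSeq calls 52 of them lncRNA, 6 protein-coding and 1 a transcribed pseudogene. The 6 protein-coding genes are LINC00493 (SMIM26), LINC00116 (MTLN), LINC00998 (SMIM30), LINC00085 (SPACA6), LINC00094 (BRD3OS) and LINC00984 (INAFM2). The pseudogene is LINC00035 (BICDL3P). Of the 53 with a gene in GENCODE release 29, 23 share exon sequence with another gene, 16 of them with a gene on the opposite strand. The protocol in the labels names no step that keeps strand, so reads of these 16 cannot be told apart from those of the partner where they overlap. Shared exon sequence on the same strand, such as that of LINC00618 with VRK1, cannot be told apart by strand in any case.

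The most abundant transcripts of the set code for small membrane proteins or are well-known lncRNAs. LINC00493 encodes SMIM26, a small mitochondrial membrane protein, and lies on chromosome 20 from 18567432 to 18569611 on the plus strand (GRCh38.p14, RefSeq). It had 60.1 FPKM in MKN1 siHOXB9 and 45.4 FPKM in MKN1 siScramble, and 138 FPKM in AGS siHOXB9 and 154 FPKM in AGS siScramble. Both AGS libraries were above both MKN1 libraries. LINC00116 encodes mitoregulin, a microprotein of the inner mitochondrial membrane. It had 19.5 FPKM in MKN1 siHOXB9 and 11.3 FPKM in MKN1 siScramble, and 45.4 FPKM in AGS siHOXB9 and 79.1 FPKM in AGS siScramble. It too was higher in AGS, and its difference with siHOXB9 had opposite signs in the lines. LINC00998, which encodes SMIM30, was almost level across the libraries, with 24.5 FPKM in MKN1 siHOXB9, 21.3 FPKM in MKN1 siScramble, 27.7 FPKM in AGS siHOXB9 and 25.2 FPKM in AGS siScramble.

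LINC00467, the fourth microprotein gene of the set, is annotated as an lncRNA although a peptide of the mitochondrial ATP synthase has been assigned to it. It had 4.37 FPKM in MKN1 siHOXB9 and 2.55 FPKM in MKN1 siScramble, and 0.460 FPKM in AGS siHOXB9 and 1.54 FPKM in AGS siScramble. Of a list of 11 LINC-named genes described as sources of microproteins, 9 have a row under the listed LINC symbol and these 4 reached 1 FPKM. The other 5 rows stayed below it, among them LINC00961 at no more than 0.836 FPKM and LINC00948, the source of the muscle peptide myoregulin, at no more than 0.465 FPKM.

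LINC00152 had 122 FPKM in MKN1 siHOXB9 and 124 FPKM in MKN1 siScramble, and 29.7 FPKM in AGS siHOXB9 and 63.6 FPKM in AGS siScramble. CYTOR, its current name, stands for cytoskeleton regulator RNA, and it is often abundant in carcinomas. The lines did not overlap, and the lowest library was AGS siHOXB9. A near-identical copy of the gene lies on the same chromosome and has its own row, MIR4435-1HG (MIR4435-2HG in RefSeq). That row had 121 FPKM in MKN1 siHOXB9 and 121 FPKM in MKN1 siScramble, and 22.0 FPKM in AGS siHOXB9 and 42.5 FPKM in AGS siScramble. The values of both rows are uncertain because reads of the copies may have been divided between them, and their shared pattern is not that of independent genes.

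LINC00657 is NORAD, an unspliced RNA that binds PUMILIO proteins and protects chromosome stability, on chromosome 20 from 36045618 to 36050960 on the minus strand. It had 26.2 FPKM in MKN1 siHOXB9 and 24.0 FPKM in MKN1 siScramble, and 73.7 FPKM in AGS siHOXB9 and 72.5 FPKM in AGS siScramble. Within each line its libraries were within 10% of each other, at 109% of siScramble in MKN1 and 102% in AGS. LINC00963 was the most even of the abundant lncRNAs, with 10.1 FPKM in MKN1 siHOXB9, 10.6 FPKM in MKN1 siScramble, 10.8 FPKM in AGS siHOXB9 and 10.5 FPKM in AGS siScramble. LINC00094, which overlaps BRD3 on the opposite strand, lay between 8.24 and 10.6 FPKM. LINC00969 (MIR570HG), a microRNA host gene, was at 8.30 FPKM in MKN1 siHOXB9, 6.17 FPKM in MKN1 siScramble, 14.2 FPKM in AGS siHOXB9 and 16.0 FPKM in AGS siScramble.

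**Figure D1:**
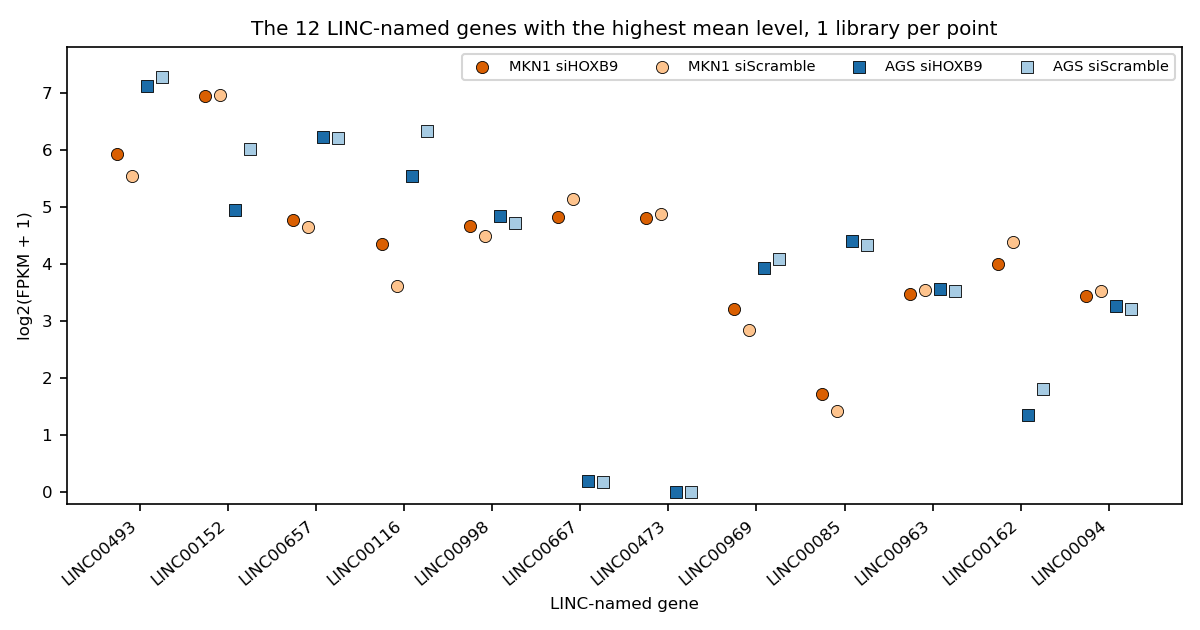
Level of the 12 LINC-named genes with the highest mean, as log2(FPKM + 1) on the vertical axis, with 1 point per library (circles for MKN1, squares for AGS, darker for siHOXB9). Points of the same line lie close together in most genes, and LINC00667 and LINC00473 are near 0 in both AGS libraries and above 4.6 in both MKN1 libraries.

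Many of the genes reached 1 FPKM in only 1 of the lines. In bulk RNA, fewer cells with a transcript and less of it per cell cannot be told apart. Of the 59 genes, 27 reached 1 FPKM in both lines, 21 in MKN1 only and 11 in AGS only. The share that reached it in 1 line only was 54.2%, against 46.1% of -AS rows, 17.7% of protein-coding genes and 22.1% of all rows at this level. These shares were not compared at equal levels. They use the level that chose the set, so a low gene can enter through 1 line and miss the level in the other. LINC00842, counted in MKN1 only, was at 0.835 and 0.959 FPKM in AGS, siHOXB9 first, while others such as LINC00473 were near 0 there. Nothing is read from the share of LINC-named genes. Only 18 of the 59 were at 1 FPKM or more in all 4 libraries, and 42 were above 0 in all. The number at 1 FPKM or more was 41 in MKN1 siHOXB9, 42 in MKN1 siScramble, 34 in AGS siHOXB9 and 33 in AGS siScramble.

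In 24 genes both MKN1 libraries were above both AGS libraries, and in 23 both were below. Over all 14827 rows at this level the same was true of 35.2% above and 43.5% below. In limma on log2(FPKM + 1), 14 of the 46 genes tested were higher in MKN1 and 15 lower, at an adjusted p under 0.05 (Benjamini-Hochberg) and a 2-fold difference, beside 16.2% and 20.9% of all 13758 rows tested. The rule asks for a level in any library, which favours genes that are high in 1 line, and these counts are given without a reading. The differences below are on the log2(FPKM + 1) scale, MKN1 minus AGS, with the standard error of that fit, and serve as a description.

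**Figure D2:**
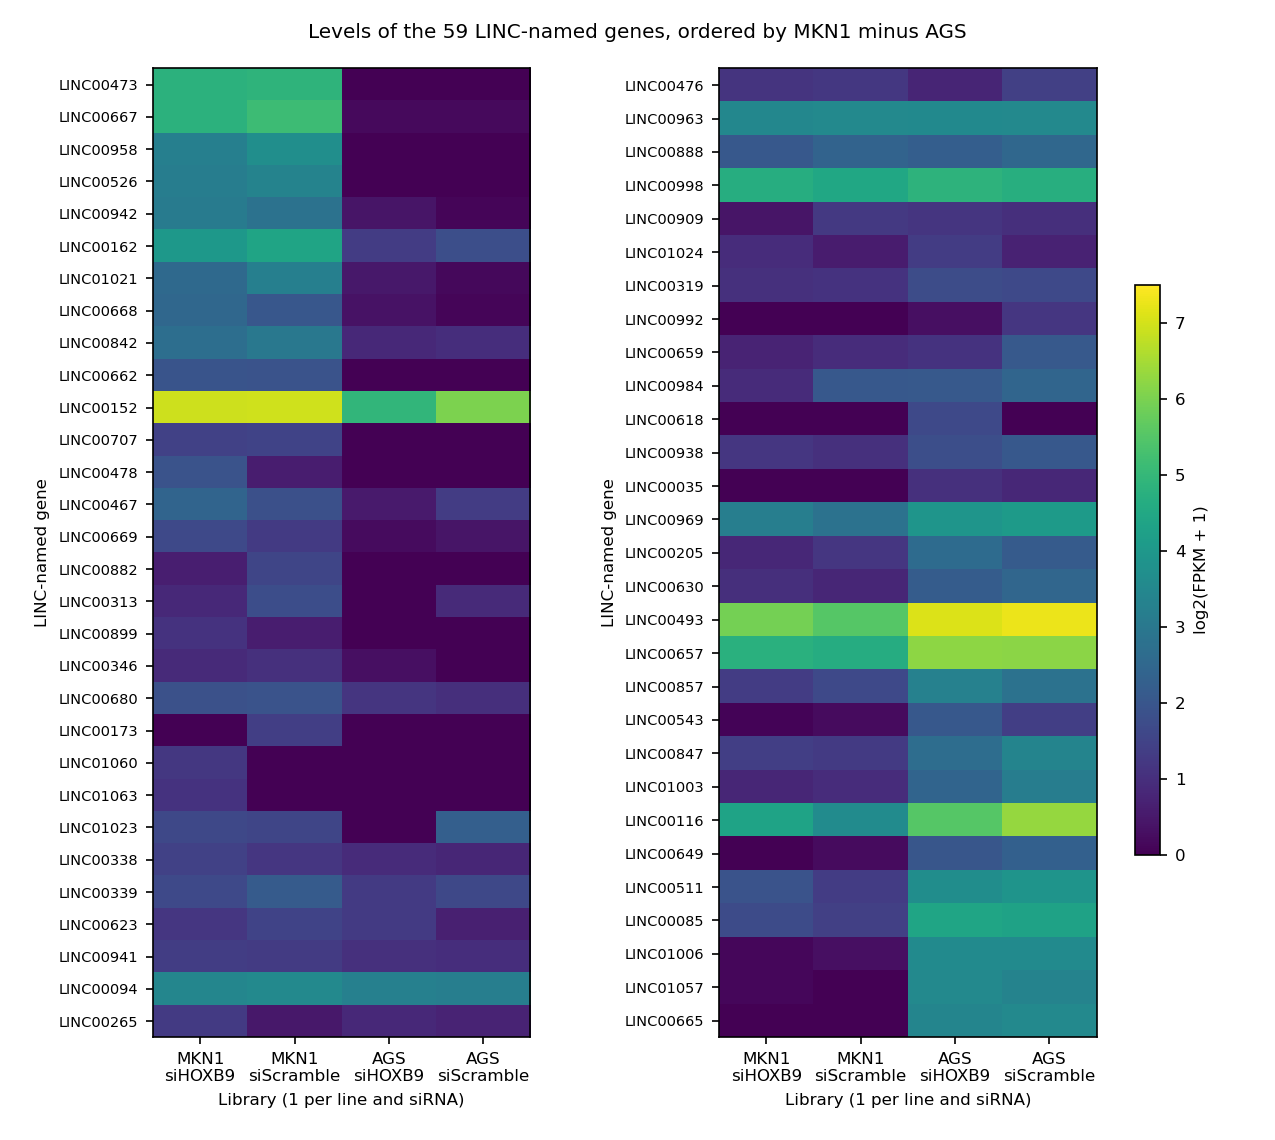
Level of each of the 59 LINC-named genes in the 4 libraries, as log2(FPKM + 1) by colour, in rows ordered by the mean MKN1 minus AGS difference. The top of the left panel holds genes seen in MKN1 and near 0 in AGS, the bottom of the right panel the opposite, and the columns of the same line look alike in most rows.

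LINC00473, the CREB target shown above, had 27.0 FPKM in MKN1 siHOXB9 and 28.5 FPKM in MKN1 siScramble. In AGS it had 0.000874 FPKM with siHOXB9 and 0.00195 FPKM with siScramble, values below that of 1 fragment. The log2 difference was 4.84 (SE 0.213), the largest of the set. It lies on chromosome 6 from 165924048 to 165988039. The gene PDE10A, a phosphodiesterase that breaks down cyclic AMP and cyclic GMP, was at 1.24 FPKM in MKN1 siHOXB9, 1.32 FPKM in MKN1 siScramble, 0.000138 FPKM in AGS siHOXB9 and 0 in AGS siScramble. PDE10A was looked up after values were seen, and a link between it and LINC00473 was not tested.

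LINC00667 and LINC00526, the head-to-head pair, went together. LINC00667 had 27.3 FPKM in MKN1 siHOXB9 and 34.3 FPKM in MKN1 siScramble, and 0.140 FPKM in AGS siHOXB9 and 0.134 FPKM in AGS siScramble. LINC00526 had 8.03 FPKM in MKN1 siHOXB9 and 9.18 FPKM in MKN1 siScramble, and was listed at 0 in both AGS libraries. Both genes of the pair were thus at 0 or under 1 FPKM in AGS. The LINC00667 values there stand for about 6.65 fragments with siHOXB9 and 6.62 with siScramble, by its longest transcript. The log2 differences were 4.80 (SE 0.220) for LINC00667 and 3.26 (SE 0.215) for LINC00526. Their exons overlap in GENCODE 29, so their reads cannot be told apart there. ZBTB14, a zinc finger factor gene nearby, was also higher in MKN1 but present in both lines, with 4.90 FPKM in MKN1 siHOXB9, 8.85 FPKM in MKN1 siScramble, 1.74 FPKM in AGS siHOXB9 and 3.15 FPKM in AGS siScramble.

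Several other RNAs studied in tumours were seen in MKN1. LINC00958 had 8.52 FPKM in MKN1 siHOXB9 and 12.1 FPKM in MKN1 siScramble, and LINC00707 had 1.71 and 1.86 FPKM in the same libraries. Both were listed at 0 in both AGS libraries. The pattern of at least 1 FPKM in both MKN1 libraries and 0 in both AGS libraries held for these and LINC00526, 3 of the 59, and for 1.99% of all 14827 rows. LINC00942 had 7.70 FPKM in MKN1 siHOXB9 and 6.16 FPKM in MKN1 siScramble, and 0.332 FPKM in AGS siHOXB9 and 0.0824 FPKM in AGS siScramble. LINC00662 had 2.83 FPKM in MKN1 siHOXB9 and 2.77 FPKM in MKN1 siScramble, and no more than 0.000706 FPKM in AGS. LINC00668 had 4.64 FPKM in MKN1 siHOXB9 and 3.11 FPKM in MKN1 siScramble, and 0.281 FPKM in AGS siHOXB9 and 0.0738 FPKM in AGS siScramble. In these 3 genes every MKN1 library was far above every AGS library.

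LINC00162 (PICSAR), first described in squamous carcinoma of the skin, had 15.0 FPKM in MKN1 siHOXB9 and 19.8 FPKM in MKN1 siScramble, and 1.54 FPKM in AGS siHOXB9 and 2.49 FPKM in AGS siScramble. Its mean in MKN1 was 8.62 times its mean in AGS. LINC01021 (PURPL in RefSeq) had 4.93 FPKM in MKN1 siHOXB9 and 8.46 FPKM in MKN1 siScramble, and 0.404 FPKM in AGS siHOXB9 and 0.114 FPKM in AGS siScramble. Both genes were thus higher in both MKN1 libraries.

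In AGS the leading genes were LINC00665, LINC01006 and LINC01057. LINC00665 was listed at 0 in both MKN1 libraries and had 9.57 FPKM in AGS siHOXB9 and 10.5 FPKM in AGS siScramble. It was the only 1 of the 59 with this pattern, which held for 1.32% of all 14827 rows. LINC01006 had 0.0922 FPKM in MKN1 siHOXB9 and 0.234 FPKM in MKN1 siScramble, and 11.1 FPKM in both AGS libraries. LINC01057 (SLC44A3-AS1) had 0.0876 FPKM in MKN1 siHOXB9, was listed at 0 in MKN1 siScramble, and had 10.4 FPKM in AGS siHOXB9 and 9.29 FPKM in AGS siScramble. LINC01006 and LINC01057 were close to absent from MKN1 at this depth. Their log2 differences were -3.38 (SE 0.216) and -3.38 (SE 0.213), and that of LINC00665 was -3.46 (SE 0.214).

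LINC00085 (SPACA6), which encodes a sperm membrane protein needed for fertilisation, had 2.30 FPKM in MKN1 siHOXB9 and 1.68 FPKM in MKN1 siScramble, and 20.2 FPKM in AGS siHOXB9 and 19.2 FPKM in AGS siScramble. LINC00511, an RNA raised in several carcinomas, had 2.81 FPKM in MKN1 siHOXB9 and 1.52 FPKM in MKN1 siScramble, and 11.8 FPKM in AGS siHOXB9 and 13.6 FPKM in AGS siScramble. LINC01003 had 0.749 FPKM in MKN1 siHOXB9 and 0.924 FPKM in MKN1 siScramble, and 4.36 FPKM in AGS siHOXB9 and 7.97 FPKM in AGS siScramble. In each of these genes the AGS libraries were higher and did not overlap those of MKN1. LINC00649, which overlaps the ATP synthase gene ATP5PO on the opposite strand, was listed at 0 in MKN1 siHOXB9 and had 0.154 FPKM in MKN1 siScramble, 2.99 FPKM in AGS siHOXB9 and 3.96 FPKM in AGS siScramble.

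Of a list of 24 LINC RNAs studied in cancer or stress, 16 have a row under the listed LINC symbol and 12 are among the 59. Rows under other names were not searched for this count. Both lines were represented. In LINC00152, LINC00473, LINC00958, LINC00707, LINC00662, LINC00668 and LINC01021 both MKN1 libraries were above both AGS libraries, and likewise in LINC00346 and LINC00941. In LINC00657, LINC00511 and LINC00665 both AGS libraries were above both MKN1 libraries. LINC00941 differed little, with 1.57 FPKM in MKN1 siHOXB9, 1.45 FPKM in MKN1 siScramble, 1.05 FPKM in AGS siHOXB9 and 0.973 FPKM in AGS siScramble. The 4 listed rows under the level were LINC00261 at no more than 0.0331, LINC00460 at no more than 0.394, LINC00483 at no more than 0.830 and LINC00520 at no more than 0.00615 FPKM.

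The nearest protein-coding gene was set beside each LINC-named gene, by distance between GENCODE 29 start sites. A neighbour with a row was found for 51 of the 59. Across these 51 genes the MKN1 minus AGS difference of the pair correlated weakly, with Pearson's r of 0.243 and Spearman's rho of 0.182. The points share the same 4 libraries, and genes are not independent replicates. Of 28 genes with a difference of at least 1 in size on the log2 scale, the neighbour differed by at least 1 the same way in 8, the other way in 5 and by less than 1 in 15.

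Some pairs went together. RNF32, whose start lies 373 bases from that of LINC01006, had 0.234 FPKM in MKN1 siHOXB9 and 0.126 FPKM in MKN1 siScramble, and 3.93 FPKM in AGS siHOXB9 and 3.88 FPKM in AGS siScramble. Their exons overlap on opposite strands, so their reads cannot be told apart there. SLC44A3, a choline transporter-like gene and the nearest to LINC01057, had 0.116 FPKM in MKN1 siHOXB9 and 0.163 FPKM in MKN1 siScramble, and 33.7 FPKM in AGS siHOXB9 and 24.0 FPKM in AGS siScramble. LAMA1, a laminin chain gene and the nearest to LINC00668, had 17.1 FPKM in MKN1 siHOXB9 and 15.9 FPKM in MKN1 siScramble, and 0.403 FPKM in AGS siHOXB9 and 0.246 FPKM in AGS siScramble. Gene and neighbour were thus higher in the same line in these 3 pairs. The start of SLC44A3 lies 35084 bases from that of LINC01057, and the start of LAMA1 187848 bases from that of LINC00668. Of 6 pairs with starts within 1000 bases, RNF32 was the only neighbour that differed by at least 1 in size between the lines.

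LINC00543 lies near CDX2, the homeobox gene of intestinal identity. LINC00543 had 0.0593 FPKM in MKN1 siHOXB9 and 0.164 FPKM in MKN1 siScramble, and 3.23 FPKM in AGS siHOXB9 and 1.65 FPKM in AGS siScramble. CDX2 had 1.76 FPKM in MKN1 siHOXB9 and 0.516 FPKM in MKN1 siScramble, and 107 FPKM in AGS siHOXB9 and 74.8 FPKM in AGS siScramble. Both were higher in AGS, and within AGS both were higher with siHOXB9, LINC00543 at 196% of siScramble and CDX2 at 143%. In MKN1, where both were low, the listed values went apart, with LINC00543 at 36.0% of siScramble and CDX2 at 341%. The LINC00543 values there stand for only about 0.997 fragments with siHOXB9 and 3.01 with siScramble, so its direction in MKN1 is not read. Other pairs went apart. The nearest coding gene to LINC00667 and LINC00526, AKAIN1 (C18orf42 in the table), differed by -1.46 on the log2 scale while they were higher in MKN1, and PRKCQ, a protein kinase C gene, differed by -2.22 where LINC00707 differed by 1.48.

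**Figure D3:**
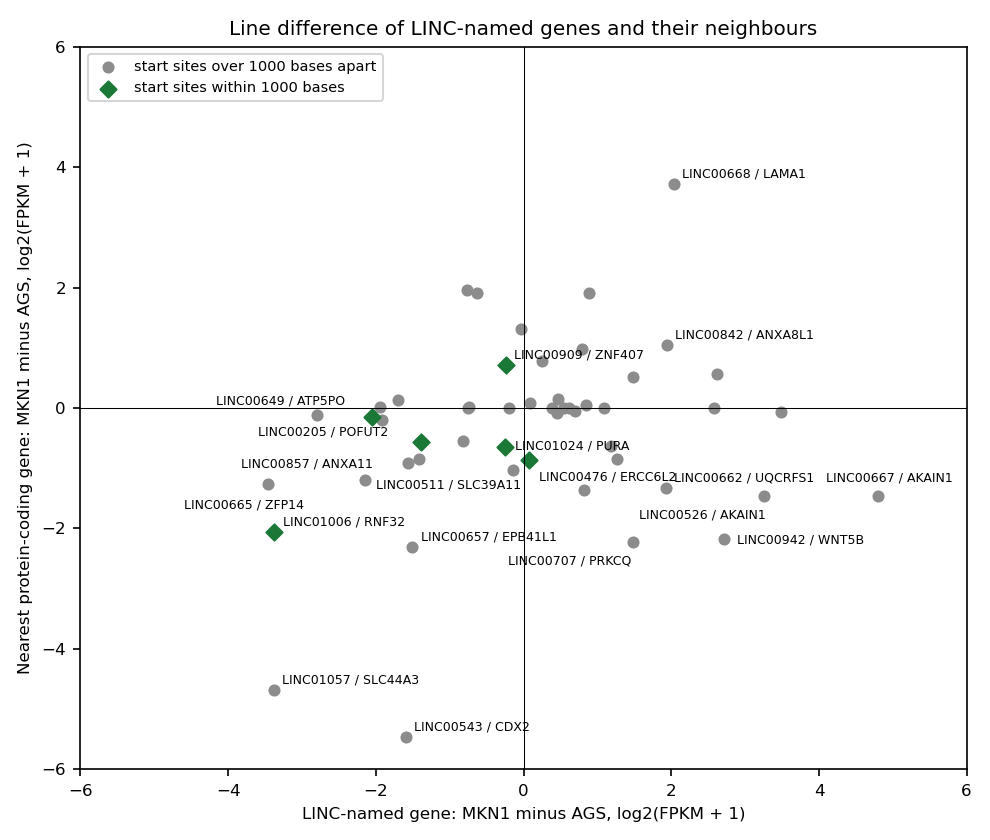
MKN1 minus AGS difference in mean log2(FPKM + 1) of 51 LINC-named genes (horizontal axis) and of the nearest protein-coding gene (vertical axis), with diamonds for start sites within 1000 bases. Pairs such as LINC01057 with SLC44A3 lie in the lower left and LINC00668 with LAMA1 in the upper right, while LINC00667 and LINC00526 lie in the lower right with AKAIN1.

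The knockdown comparison was made within each line, where 1 library per siRNA allows no test. A difference is log2((siHOXB9 FPKM + 1)/(siScramble FPKM + 1)), which understates changes of low genes, and a gene was counted at a size of at least 1, a 2-fold difference. Of 16 that averaged at least 5 FPKM over the MKN1 libraries, 14 were within 0.5 of 0, with a range of -0.67 to 0.74, beside 87.5% of all 9122 rows at that mean. Of 16 that averaged at least 5 FPKM over the AGS libraries, 12 were within 0.5, with a range of -1.08 to 0.47, beside 86.0% of all 9604 rows.

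In MKN1, 48 of the 59 had at least 1 FPKM in either library. Of these, 3 were at least 2-fold higher with siHOXB9 and 2 at least 2-fold lower, while 2.1% of all 13122 rows were higher and 1.94% lower. That is 10.4% of the 48 either way, beside 4.05% of all rows. All of these but LINC00984, 4 of the 5, reached 1 FPKM in only 1 of the 4 libraries, so they belong to the set through the library in which they were high, and nothing is read from the count. The difference was above 0 in 23 of the 48, beside 63.1% of all rows, and below 0 in 25, beside 36.9%. The median difference of the 48 was -0.03, and that of all rows 0.09. With a common total these medians were -0.08 and 0.03, and 22 of the 48 were above 0, beside 53.9% of all rows. With median centring they were -0.10 and 0.02, and 20 were above 0, beside 52.5%. LINC00478, the microRNA host gene, had 2.80 FPKM in MKN1 siHOXB9 and 0.507 FPKM in MKN1 siScramble, a difference of 1.34, and was listed at 0 in AGS. By length and depth these values stand for about 163 and 32.1 fragments in the same libraries. LINC01060 had 1.35 FPKM in MKN1 siHOXB9 and 0.00155 FPKM in MKN1 siScramble, below the value of 1 fragment, a difference of 1.23. LINC01063 had 1.14 FPKM in MKN1 siHOXB9 and was listed at 0 in MKN1 siScramble, but its transcript is so short that 1.14 FPKM corresponds to about 1.06 fragments. Of the 3 higher genes, LINC00478 alone was above the value of 1 fragment in both libraries, by its longest transcript.

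The lower genes in MKN1 were LINC00173 and LINC00984. LINC00173 was listed at 0 in MKN1 siHOXB9 and had 1.61 FPKM in MKN1 siScramble, about 24.8 fragments by its longest transcript. With LINC01063 it made 2 of 48 with a 0 in 1 MKN1 library and at least 1 FPKM in the other, beside 1.01% of all rows. LINC00984, which encodes the protein INAFM2, had 0.909 FPKM in MKN1 siHOXB9 and 3.20 FPKM in MKN1 siScramble, a difference of -1.14. In AGS it had 3.29 FPKM with siHOXB9 and 4.40 FPKM with siScramble, a difference of -0.33, so it was below siScramble in both lines and past 2-fold in MKN1. Genes short of 2-fold in MKN1 included LINC00882 at -0.93, LINC00313 at -0.91 and LINC00909 at -0.81, and on the other side LINC00265 at 0.79. All 4 had no more than 2.43 FPKM in either library. LINC01021 had a difference of -0.67, with 58.2% of its siScramble level.

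In AGS, 38 of the 59 had at least 1 FPKM in either library. LINC00618 was at least 2-fold higher with siHOXB9, and LINC01023 and LINC00152 at least 2-fold lower, beside 1.68% of 13252 rows higher and 2.21% lower. That is 7.89% of the 38 either way, beside 3.89% of all rows. LINC00618 reached 1 FPKM in AGS siHOXB9 alone and belongs to the set through that library, so nothing is read from this count either. The difference was above 0 in 17 of the 38, beside 43.0% of all rows, and below 0 in 21, beside 57.0%. The median difference of the 38 was -0.14, and that of all rows -0.06. With a common total these medians were -0.05 and 0.03, so that of all rows changed sign, and 18 of the 38 were above 0, beside 53.8% of all rows. With median centring they were -0.09 and -0.01, and 18 were above 0, beside 49.3%. LINC00152 had 29.7 FPKM in AGS siHOXB9, 46.6% of the 63.6 FPKM in AGS siScramble, a difference of -1.08, and it was the only abundant member past 2-fold. With the libraries rescaled to a common total the difference was -0.98, short of 2-fold. The copy MIR4435-1HG was at 51.6% of siScramble in AGS, and in MKN1 LINC00152 was at 98.7%. LINC01023 was listed at 0 in AGS siHOXB9 and had 3.86 FPKM in AGS siScramble, about 8.81 fragments. LINC00618 had 2.13 FPKM in AGS siHOXB9, about 11.7 fragments by its longest transcript, and was listed at 0 in AGS siScramble. LINC00618 shares exon sequence with VRK1 on the same strand. Apart from LINC00152, the genes past 2-fold in AGS were thus genes of few fragments with a 0 in a library, 2 of 38, a pattern that held for 0.755% of all rows.

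Rescaling to a common total also moved the split of all rows past 2-fold in AGS, of which 43.2% were higher in the table as deposited and 53.6% after it. In MKN1 52.0% were higher as deposited, 44.9% with a common total and 42.2% with median centring. Mitochondrial transcripts differed between the libraries too. MT-CO1 was at 69.5% of siScramble in MKN1 and 186% in AGS, and its part in the differences of the LINC-named genes was not tested.

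Other differences in AGS fell short of 2-fold. LINC00659 had 1.14 FPKM in AGS siHOXB9 and 3.26 FPKM in AGS siScramble, a difference of -0.99. LINC00992 had 0.229 FPKM in AGS siHOXB9 and 1.29 FPKM in AGS siScramble, a difference of -0.89. Of those above siScramble, LINC00543 was at 0.67, LINC00623 at 0.63, LINC01024 (MALINC1, an RNA linked to mitosis) at 0.63, LINC00857 at 0.47 and LINC00205 at 0.47.

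The lines were then set side by side. Among the 27 genes that reached 1 FPKM in both lines, 0 passed 2-fold in the same direction in both, beside 0.39% of 11547 rows. The difference was above 0 in both lines in 4 and below 0 in both in 6, beside 29.2% and 23.9% of all rows, and of opposite sign in 17, beside 46.9%. It was of opposite sign and at least 0.5 in size in each line in 2 of the 27, LINC00116 (0.74 in MKN1 and -0.79 in AGS) and LINC00467 (0.60 and -0.80), beside 1.53% of all rows. The 4 above 0 were LINC00998 (0.19 in MKN1 and 0.13 in AGS), LINC00085 (0.30 and 0.07), LINC00941 (0.07 and 0.05) and LINC00657 (0.12 and 0.02), all small. The 6 below 0 were led by LINC00162 (-0.38 in MKN1 and -0.46 in AGS), LINC00339 (-0.49 and -0.34) and LINC00984 (-1.14 and -0.33), and the others were LINC00888 (-0.34 and -0.27), LINC00476 (-0.11 and -0.63) and LINC00152 (-0.02 and -1.08).

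LINC00339 had 2.13 FPKM in MKN1 siHOXB9 and 3.41 FPKM in MKN1 siScramble, and 1.42 FPKM in AGS siHOXB9 and 2.07 FPKM in AGS siScramble. LINC00888 (SNHG33), annotated as a snoRNA host gene, had 3.17 FPKM in MKN1 siHOXB9 and 4.27 FPKM in MKN1 siScramble, and 3.72 FPKM in AGS siHOXB9 and 4.70 FPKM in AGS siScramble. The siHOXB9 library was below siScramble in both lines in these genes and in LINC00162, at 75.6% of siScramble in MKN1 and 62.0% in AGS for LINC00162, 62.4% and 68.9% for LINC00339, and 74.1% and 79.2% for LINC00888. The LINC00162 values in AGS stand for only about 9.11 fragments with siHOXB9 and 15.3 with siScramble. In MKN1 they stand for about 75.1 and 108 fragments in the same order.

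Over both lines, limma with terms for line and siRNA tested 46 of the 59 among 13758 rows that reached 1 FPKM in 2 or more libraries. At an adjusted p under 0.05 (Benjamini-Hochberg) 0 of the 46 passed, beside 0.00727% of all rows. At an unadjusted p under 0.05, LINC00984 and LINC00659 passed, 2 of 46, beside 7.12% of all rows. For LINC00984 the effect was -0.73 (SE 0.261, limma unadjusted p 0.0253, adjusted p 0.651), and for LINC00659 -0.60 (SE 0.256, limma unadjusted p 0.0497, adjusted p 0.702). Both were below siScramble in 2 of 2 lines, which this fit favours, since its residual is the disagreement between the lines. For LINC00659 the MKN1 values stand for about 1.98 fragments with siHOXB9 and 3.02 with siScramble. In AGS they stand for about 3.99 and 11.8 fragments in the same order. The number that passed at an unadjusted p under 0.05 was 0 with a common total, 0 with median centring and 1 with a pseudocount of 0.1. It was also 0 with a filter of 5 FPKM, which says nothing of LINC00984 and LINC00659. That filter removes both, since they reach no more than 4.40 and 3.26 FPKM. LINC00162 had an effect of -0.42 (SE 0.209, limma adjusted p 0.744). The fit leaves 1 residual degree of freedom, and a p above the threshold does not show that siHOXB9 left a gene as it was. HOXB9 itself, at -1.25 (SE 0.268, limma adjusted p 0.355), was not called either.

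**Figure D4:**
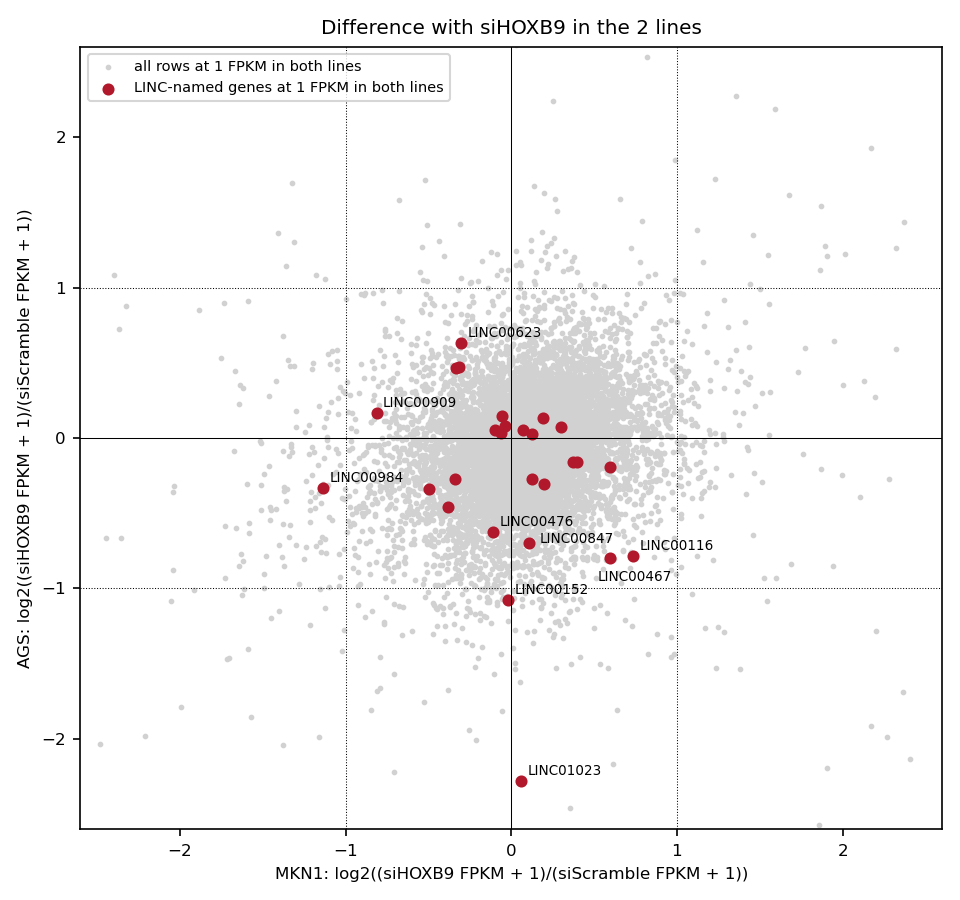
Difference with siHOXB9, log2((siHOXB9 FPKM + 1)/(siScramble FPKM + 1)), in MKN1 (horizontal axis) and AGS (vertical axis) for the 27 LINC-named genes with 1 FPKM in each line (red) and all 11547 such rows (grey, with 34 outside the axes), with dotted lines at a 2-fold difference. The red points lie within the grey cloud, 0 of them beyond 2-fold in both lines, with LINC01023 and LINC00152 low in AGS and LINC00984 low in MKN1.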

How the data were processed

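Poly(A) RNA of 4 libraries, 1 per line and siRNA, was sequenced, and the authors deposited a table of FPKM values by gene symbol. The submitters' processing notes name the builds GRCh38 and hg38. The aligner, counter and annotation were not given in the sources used here. Symbols were joined to RefSeq (GRCh38.p14) and GENCODE 29. Differences within a line used log2(FPKM + 1) and rows with at least 1 FPKM in either library, with no test. Over the lines, limma 3.58.1 (R 4.3.3) was fitted with terms for line and siRNA and an intensity trend, two-sided, with Benjamini-Hochberg adjustment over all 13758 rows tested. A run on simulated data changed only rows of higher level, with noise of a fixed size, so it does not cover genes at low levels. With 1 residual degree of freedom, limma takes part of the variance of each gene from the other rows, so standard errors and p-values rest partly on other genes. The residual of a gene itself is the disagreement between the lines, and no spread between replicate libraries is measured.

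Depths were estimated from low values of genes with 1 transcript, of which 63.5% to 66.0% lay within 0.05 of a whole fragment when lengths were shortened by 260 bases, so fragment numbers are approximate. The genes named were the 12 with the highest mean, the 6 largest differences each way per line and in both lines, the 8 widest gaps each way between lines, the 4 on each side of the 1 FPKM level and the members of 2 lists. PDE10A, ZBTB14, MT-CO1 and the copy of LINC00152 were looked up after values were seen. The members and lists were chosen with earlier results of these data known. Alternatives were a pseudocount of 0.1, no filter or other filters, a common total, median centring, a 1.5-fold rule, limma without trend, with the robust option or without a term, and other levels for the set.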

Additional observations from a re-analysis of the deposited data

Results flagged for a closer look

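The difference with siHOXB9 had opposite signs in the lines, at a size of at least 0.5 in each, in LINC00116 and LINC00467, 2 of the 27 genes at 1 FPKM in both lines, beside 1.53% of all such rows. For LINC00116, the gene of the mitochondrial microprotein mitoregulin, it was 0.74 in MKN1 and -0.79 in AGS. For LINC00467 it was 0.60 in MKN1 and -0.80 in AGS. Each value compares 1 library with 1, and the difference between the lines was not tested, because a fit with an interaction has no residual degrees of freedom. LINC00116 shares exon sequence with a gene on the opposite strand.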

How the results depend on the processing

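Counts of genes past 2-fold rest on low values. With a pseudocount of 0.1, 5 genes were lower in MKN1, and 3 were higher and 6 lower in AGS. With a filter of 5 FPKM, 0 were higher and 0 lower in MKN1, and 0 were higher and 1, LINC00152, lower in AGS. With a 1.5-fold rule, 7 were higher and 6 lower in MKN1, and 4 were higher and 9 lower in AGS. With a common total 1 was lower in AGS, LINC01023. Between the lines, no filter left 9 higher in MKN1 and 6 lower, and a filter of 5 FPKM left 8 higher. Filters and rules change how many genes are counted by construction, and the cause of the other shifts was not tested. A level of 0.5 FPKM gives 89 genes in place of 59. Of the other 40 counts under an alternative, each was within 1.5 times its main count, and no gene named past 2-fold reversed its direction. The median over all rows in AGS changed sign, at 0.03 with a common total in place of -0.06. limma called 0 of the LINC-named genes for siHOXB9 under every alternative, and of all rows 8 with a filter of 5 FPKM and 7 with the robust option, in place of 1. The fit over both lines takes the line as its block, which sets siHOXB9 beside siScramble within each line. With no replicate block, 0 LINC-named genes and 0 of all rows were called. Leaving out a library could not be fitted, since no residual degree of freedom remains. Depth limits the genes near 1 FPKM, where a short transcript may rest on about 1 fragment.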
